A study of Mus musculus with 24 samples.

Results

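Renal macrophages of the subsets named M1 and M2 were compared by the DNA barcodes they carried. The comparison used 6 of the 24 samples, 3 of M1 and 3 of M2 macrophages, taken by the cell type in their titles and paired by mouse number over 3 recipient mice. Both subsets came from the same animals. The donors were C57BL/6 mice, and their bone marrow stem cells were cultured and infected with the barcoding lentivirus pBC008, whose GFP marks infected cells. Infected cells that were positive for GFP, Sca1 and cKit and negative for lineage markers were given to male CD45.2 recipients aged 5 weeks, irradiated with 9 Gy, together with unbarcoded rescue cells, and tissue was taken 2 months later. The strain is labelled C57BL/6J throughout, and no sample came from an untreated or unirradiated animal. The labels give neither the markers that separated M1 from M2 nor the number of sorted cells. Genomic DNA carries no expression, so the 2 names could not be checked against marker genes.

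Kidney macrophages clear debris and immune complexes and take part in injury and repair. Some descend from precursors that settled in the organ and divide there, and others are replaced from circulating monocytes. M1 and M2 are the names of a scheme that sets inflammatory against repair-associated macrophages. A lentiviral barcode is copied into every descendant of the infected stem cell, so cells with the same barcode form a clone, and the share of reads of a barcode stands for the size of that clone among the barcoded cells. Reads count amplified copies and not cells, and recipient or rescue cells without a barcode add nothing to it.

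Each barcode is 52 bases long, with G or C and A or T taking turns. The sequences that carry the comparison follow, written 5′ to 3′, with capitals at bases that break that turn. They are synthetic and have no position in the mouse genome. Names give the mouse (m1, m2 or m3) and a letter. The first set holds the 3 barcodes with the highest share of M1 reads and the 3 with the highest share of M2 reads in each mouse, some of which led in both subsets.
m1a: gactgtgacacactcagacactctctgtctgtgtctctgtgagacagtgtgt
m1b: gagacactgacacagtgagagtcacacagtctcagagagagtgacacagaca
m1c: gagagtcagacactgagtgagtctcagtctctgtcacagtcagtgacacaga
m1d: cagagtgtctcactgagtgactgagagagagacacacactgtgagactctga
m1e: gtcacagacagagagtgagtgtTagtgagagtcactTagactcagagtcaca
m1f: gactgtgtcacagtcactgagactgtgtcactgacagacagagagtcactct
m2a: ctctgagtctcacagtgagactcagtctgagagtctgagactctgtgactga
m2b: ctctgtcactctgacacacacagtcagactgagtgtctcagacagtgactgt
m2c: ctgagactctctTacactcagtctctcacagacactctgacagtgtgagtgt
m3a: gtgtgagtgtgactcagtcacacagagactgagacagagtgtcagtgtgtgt
m3b: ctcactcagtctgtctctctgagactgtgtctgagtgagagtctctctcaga
m3c: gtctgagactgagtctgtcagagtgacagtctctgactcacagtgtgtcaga
m3d: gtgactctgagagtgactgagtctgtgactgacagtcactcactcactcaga

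The second set shows the 2 barcodes per mouse with the highest M2 over M1 ratio among those at 0.5% or more of M2 reads.
m1g: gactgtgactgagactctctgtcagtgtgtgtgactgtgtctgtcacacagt
m1h: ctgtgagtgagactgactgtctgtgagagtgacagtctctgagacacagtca
m2d: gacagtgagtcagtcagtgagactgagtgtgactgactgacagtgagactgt
m2e: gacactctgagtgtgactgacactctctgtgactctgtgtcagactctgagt
m3e: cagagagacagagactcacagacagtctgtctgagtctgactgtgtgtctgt
m3f: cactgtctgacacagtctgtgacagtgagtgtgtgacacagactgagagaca

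The third set shows the barcodes with the highest M1 over M2 ratio among those at 0.5% or more of M1 reads, 2 per mouse, of which m3b is listed above.
m1i: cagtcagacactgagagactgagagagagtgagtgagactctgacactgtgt
m1j: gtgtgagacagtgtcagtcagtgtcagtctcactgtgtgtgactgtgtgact
m2f: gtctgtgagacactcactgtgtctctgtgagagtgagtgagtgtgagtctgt
m2g: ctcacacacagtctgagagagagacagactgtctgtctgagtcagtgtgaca
m3g: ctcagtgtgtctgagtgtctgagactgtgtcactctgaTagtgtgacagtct

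These 24 barcodes had low shares in the kidney samples of other mice. In the M1 and M2 samples of the other mice each reached at most 0.0558%, with a median of 0.00743%, and 10 of the 24 reached 0.01% there. Over all samples of the other mice, the highest shares were 0.105% for m2f, 0.0622% for m3d and 0.0344% for m3c. Of the 24, 21 followed the alternating pattern without a break.

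M1 samples held 11640032, 12892062 and 12660307 reads in mice 1, 2 and 3, and M2 samples 14679214, 15745444 and 11462466. A count of 0 in these samples allows a share of up to 1.91e-05% to 2.62e-05% (3 reads). The labels name no molecular identifiers for the PCR, and these limits and the intervals below therefore cover counting error only. A barcode was called present at 0.01% of a sample's reads, which is 1147 to 1575 reads.

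M2 samples held many present barcodes and M1 samples few. M1 samples held 226, 94 and 120 present barcodes in mice 1, 2 and 3, and M2 samples 1353, 893 and 1181. The M2 number was 5.99 to 9.84 times the M1 number in the same mouse, and the ranges of the subsets did not overlap (geometric mean 8.24-fold, exact permutation test, two-sided p = 0.1). With 3 samples against 3, the smallest p of this exact test is 0.1, so none of the comparisons of M1 with M2 here could pass a threshold of 0.05. Each such p stays at 0.1125 or above after Benjamini-Hochberg adjustment over 9 tests. The permutation leaves out the pairing by mouse, and an exact sign-flip test within mice gave p = 0.25 for the barcode number.

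Measures that weigh clones by size also differed. To reach 50% of the reads, M1 samples needed 7, 5 and 4 barcodes and M2 samples 138, 54 and 111. That is an 18.1-fold difference (geometric mean, 10.8 to 27.8-fold in single mice, exact permutation p = 0.1), with no overlap. For 90% of the reads the numbers were 27, 20 and 17 in M1 against 1031, 545 and 847 in M2. The effective number of barcodes, which is the exponential of the Shannon entropy, was 33.3, 24.8 and 19.1 in M1 and 736, 355 and 610 in M2 (21.6-fold, exact permutation p = 0.1). The inverse Simpson index, which weighs leading clones most, was 18.5, 14.9 and 9.98 in M1 and 209, 88.1 and 171 in M2. Its fold was 10.5 (5.93 in the lowest mouse, exact permutation p = 0.1), and in mouse 2 it was below the 9.5-fold of the barcode number. Mouse 3 had the fewest leading clones in M1, and mouse 2 in M2, so the order of the mice was not the same in the subsets.

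**Figure D1:**
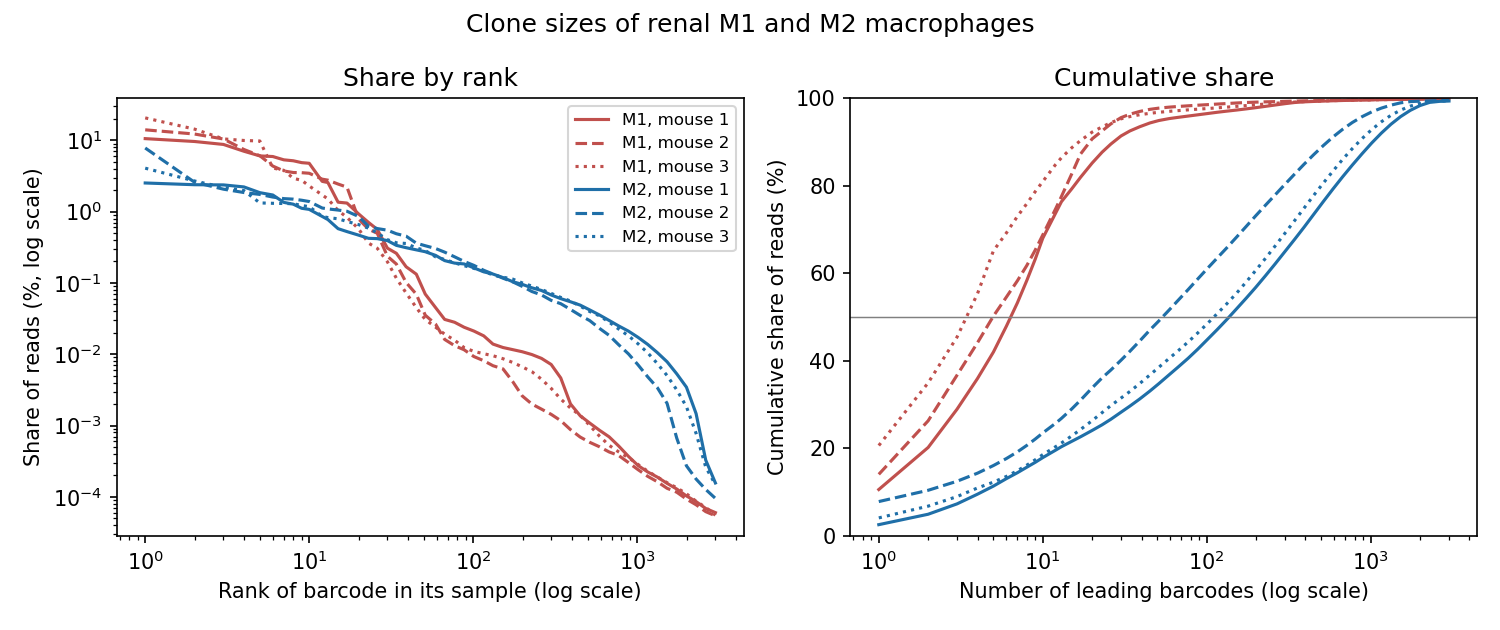
Left, share of reads (%) of each barcode against its rank in the sample, both on log scales. Right, cumulative share (%) against the number of leading barcodes, on a log scale, with a grey line at 50%. Lines are single samples, red for M1 and blue for M2, with a line style per mouse. The M1 curves cross 50% at 4 to 7 barcodes and the M2 curves at 54 to 138.

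The size classes of the clones show where the reads of each subset lay. Barcodes at 5% or more held 58.3%, 50.2% and 65.1% of M1 reads in mice 1, 2 and 3. In M2, 1 barcode reached 5%, in mouse 2, where it held 7.79%. Barcodes between 1% and 5% numbered 11, 13 and 10 in M1 and 10, 17 and 10 in M2, close to each other in number. They held 29.4% ± 8.24 of M1 and 20.2% ± 3.49 of M2 reads (SD, n = 3 each).

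Below 1% the subsets parted. Barcodes between 0.1% and 1% held 8.51% ± 1.71 of M1 reads, in 23 ± 5.29 barcodes, and 39.7% ± 2.28 of M2 reads, in 176 ± 12.5 barcodes (SD, n = 3 each). Barcodes between 0.01% and 0.1% held 3.43%, 1.49% and 2.03% of M1 reads in mice 1, 2 and 3, and 38.9%, 24.3% and 34.2% of M2 reads. Every M2 sample lay above every M1 sample in this class, by 30.1 percentage points on average (exact permutation p = 0.1). Barcodes under 0.01% held under 6% of reads in every sample of both subsets.

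**Figure D2:**
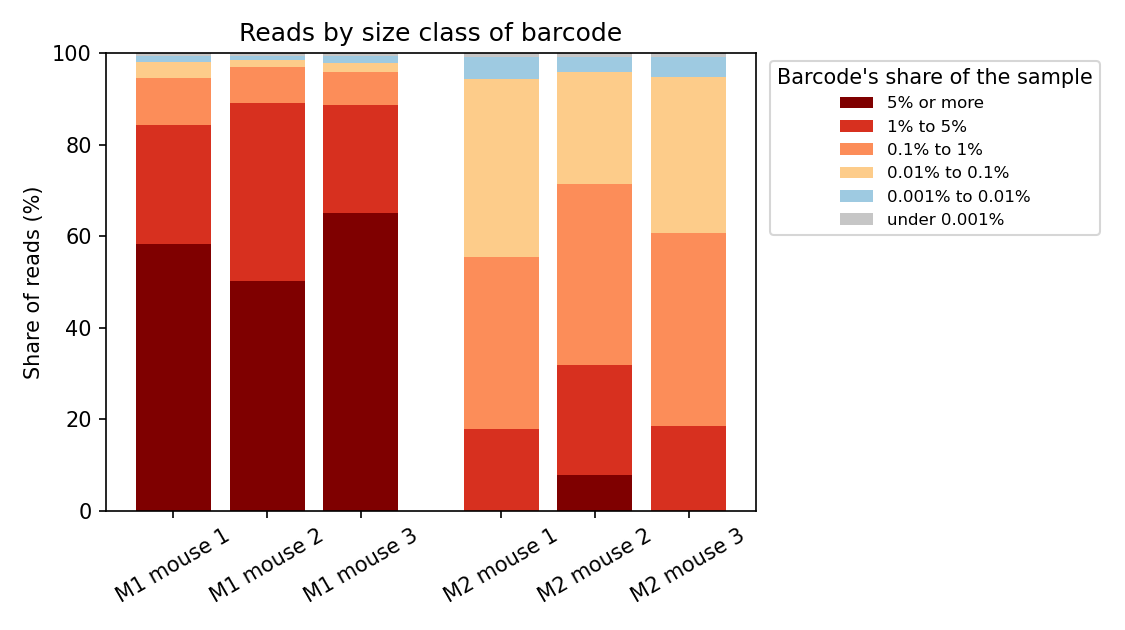
Share of reads (%) held by barcodes of each size class, stacked, in the 3 M1 and the 3 M2 samples. Dark red, barcodes at 5% or more, takes 50.2% to 65.1% of M1 reads and appears in M2 of mouse 2 alone, while the classes between 0.01% and 1% take most M2 reads.

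The lower end of the M1 distribution had a second peak. Counted in steps of 2-fold, M1 samples of mice 1, 2 and 3 held 43, 39 and 83 barcodes between 0.0025% and 0.005%. They held 112, 71 and 129 between 0.005% and 0.01%, 122, 32 and 55 between 0.01% and 0.02%, and 43, 13 and 17 between 0.02% and 0.04%. A crowd of small M1 barcodes of similar share thus lay around 0.01% in all 3 mice. The presence level cuts through this crowd. With presence at 0.001% the M1 samples held 543, 370 and 514 barcodes and the M2 samples 2355, 1671 and 2206, and the fold between subsets was 4.38 (exact permutation p = 0.1) in place of 8.24. Since the labels do not give the number of cells behind each sample, fewer clones and fewer sorted cells or template copies cannot be told apart.

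**Figure D3:**
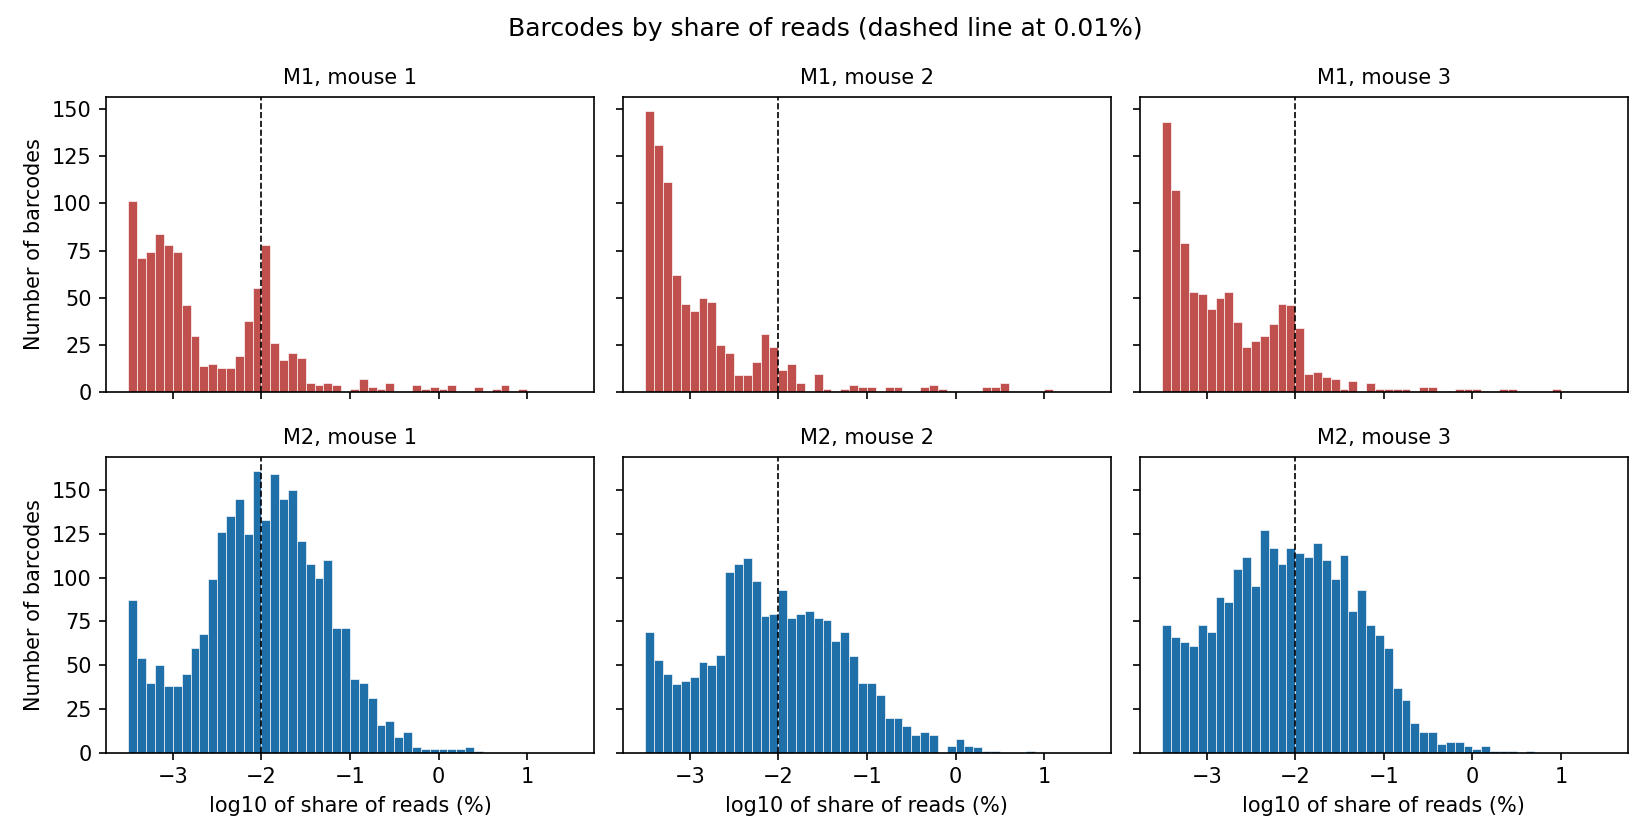
Number of barcodes against the log10 of their share of reads (%), in bins of 0.1, for M1 (top, red) and M2 (bottom, blue) of each mouse. A dashed line marks 0.01%. M1 samples show a narrow peak near that line beside the rising left edge, and M2 samples a broad distribution around it.

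Few M1 barcodes were missing from M2, and many M2 barcodes were missing from M1. Of the present M1 barcodes, 202 of 226, 88 of 94 and 106 of 120 were also present in M2 of the same kidney (89.4%, 93.6% and 88.3% of the M1 list), which is 14.9%, 9.85% and 8.98% of the M2 list. The shared barcodes held 97.4%, 98.2% and 97.5% of M1 reads but 44.6%, 48.3% and 38.2% of M2 reads. Barcodes present in M2 only numbered 1151, 805 and 1075 and held 49.6%, 47.5% and 56.5% of M2 reads. Barcodes present in M1 only numbered 24, 6 and 14 and held 0.654%, 0.199% and 0.282% of M1 reads. The difference of 50.8 percentage points between these shares had the same direction in 3 of 3 mice, with no overlap (exact permutation p = 0.1). The M1 lists were far shorter than the M2 lists (226, 94 and 120 against 1353, 893 and 1181 barcodes). Most of each M2 list therefore had to be in M2 only, so this difference is not independent of the barcode numbers.

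Few of the barcodes in M1 only were far from the presence level. In mice 1, 2 and 3 their median share of M1 reads was 0.0124%, 0.0270% and 0.0124%, and 21 of 24, 6 of 6 and 12 of 14 had reads in M2 below 0.01%. Those over 4-fold higher in M1 numbered 2, 1 and 2 (on share plus 0.01%). With 0.01% added, barcodes at or below these medians could not pass 4-fold even without reads in M2. The largest barcode in M1 only, in mouse 1, held 0.307% of M1 and 0.00788% of M2 reads. In mouse 3, 7 of the 14 had a share 100 times higher or more in some sample of another mouse. In mouse 2, 2 of the 6 were 1 mismatch away from a barcode with 10 times their reads or more.

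The barcodes in M2 only were mostly small in M2 and close to absent in M1. Their median share of M2 reads was 0.0262%, 0.0321% and 0.0316% in mice 1, 2 and 3, and the largest held 0.576%, 0.836% and 0.813%. Of these barcodes, 91, 122 and 137 reached 0.1% in M2 and held 15.8%, 24.4% and 24.2% of M2 reads. In M1 of the same kidney the median M2-only barcode had 3, 4 and 4 reads of 11640032 to 12892062. The same barcodes had a median of 4, 5 to 8 and 2 reads in M1 samples of the other mice, which shows the trace level between mice. The 90th percentile was higher in the own kidney, at 270, 67.4 and 560 reads against 17 to 20, 25 to 38 and 12 to 14 reads in M1 of other mice. This upper tail reaches into the range of the crowd of small M1 barcodes described above. M2-only barcodes at 0.001% or more in M1 numbered 130, 73 and 139, and without them, 39.6% ± 1.96 of M2 reads (SD, n = 3) remained in barcodes under 0.001% in M1. Of the M2-only barcodes, 5, 3 and 2 had a share 100 times higher or more in another mouse, and 0 were 1 mismatch from one with 10 times their reads or more.

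**Figure D4:**
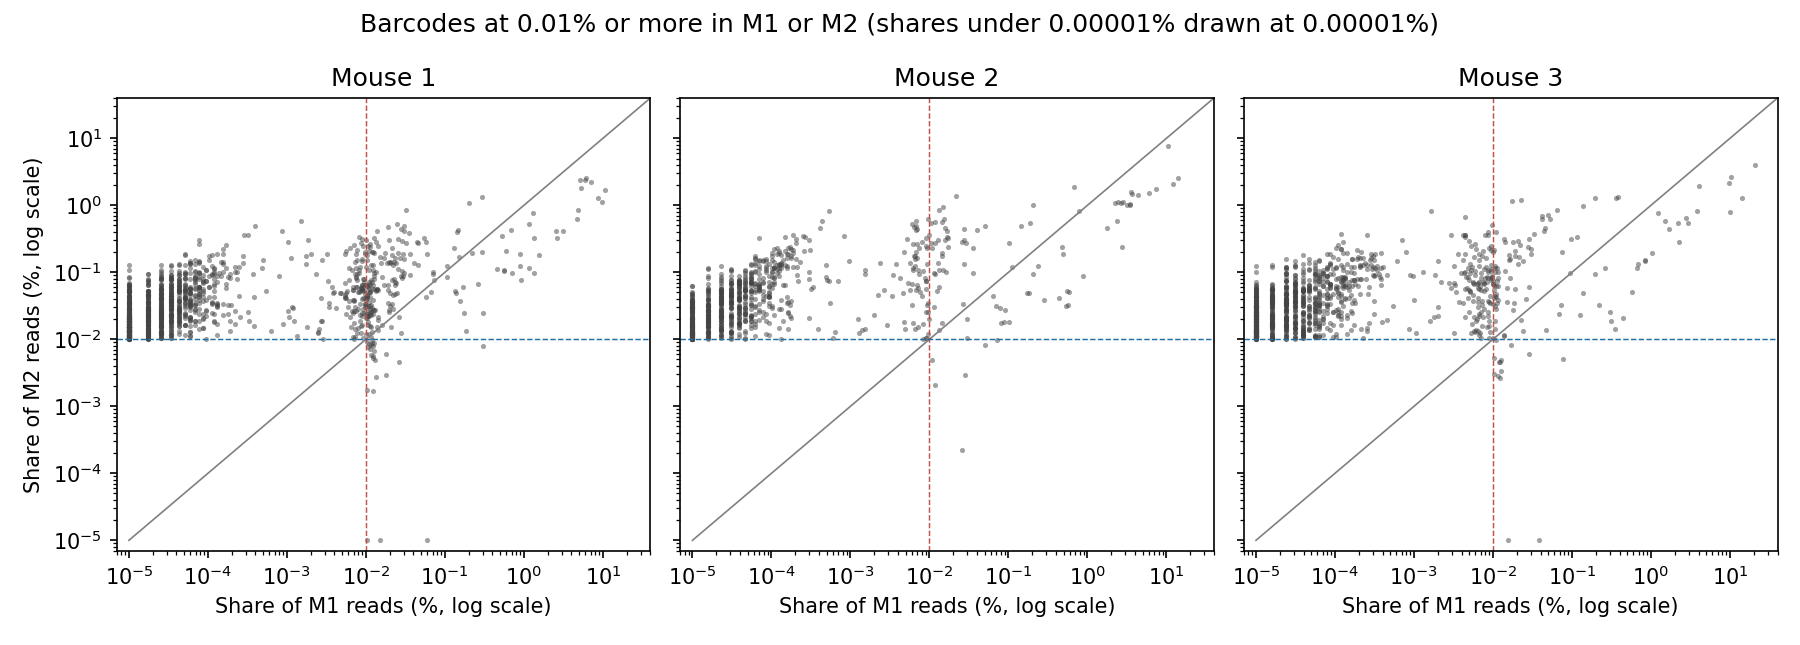
Share of M2 reads (%) against share of M1 reads (%) for each barcode at 0.01% or more in either subset, 1 panel per mouse, on log scales. The grey line marks equal shares and dashed lines mark 0.01%. The barcodes at 1% or more of M1 reads all lie below the grey line, and a dense column of M2 barcodes stands at the left edge, with few M1 reads.

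All large M1 clones were also M2 clones, at a lower share. The 52 barcodes at 1% or more of M1 reads (19, 18 and 15 in mice 1, 2 and 3) were all present in M2, and all 52 had a lower share there. The M2 share was 0.0723 to 0.587 times the M1 share in mouse 1, 0.0868 to 0.748 times in mouse 2 and 0.0798 to 0.622 times in mouse 3. The median ratio was 0.163, 0.313 and 0.224. Together these barcodes held 84.2%, 89.0% and 88.6% of M1 reads and 20.1%, 29.0% and 17.8% of M2 reads. Shares add up to 100% within a sample, so a sample with many added clones must have lower shares of the others. Of the 69 barcodes between 0.1% and 1% of M1 reads, 19 had a higher share in M2. Between 0.01% and 0.1% of M1 reads, 254 of 319 did, and 178 of these 319 were from mouse 1. The classes were set by the M1 share, which is also the base of the ratio. A rise of the ratio towards small M1 barcodes thus follows in part from this sorting.

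The leading clones were partly the same in both subsets. Of the 10 leading barcodes, 8, 8 and 5 were shared by M1 and M2 in mice 1, 2 and 3. The 10 leading M1 barcodes held 68.0%, 68.7% and 80.9% of M1 reads and 16.9%, 22.3% and 15.3% of M2 reads. In M2 samples of the other mice the same barcodes summed to between 0.0596% and 0.143%. The 10 leading M2 barcodes held 17.8%, 23.5% and 18.5% of M2 reads, and 58.8%, 62.5% and 60.2% of M1 reads. The leaders of M2 thus took a larger part of M1 than of M2 itself in each mouse.

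Single clones are given per mouse, since each is measured once in each subset and no test between single shares is possible. In mouse 1, m1a led M1 with 10.5% of reads and held 1.71% of M2 reads, where it was the 6th barcode. The next M1 barcodes, m1b and m1c, held 9.61% and 8.74% in M1 and 1.11% and 1.27% in M2. The leaders of M2 were m1d with 2.52%, m1e with 2.38% and m1f with 2.37%, and these held 6.04%, 5.92% and 5.16% in M1. The M2 share was 0.404 to 0.460 times the M1 share for these 3, against 0.117 to 0.163 times for m1a to m1c.

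In mouse 2 the same 3 barcodes led both subsets in another order. The first of M1, m2a, held 14.0% of M1 and 2.58% of M2 reads, and m2b 12.2% and 2.06%. The next, m2c, was nearest to even, with 10.4% of M1 and 7.79% of M2 reads, and was the largest clone of any M2 sample. It has 1 base off the alternating pattern.

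In mouse 3, m3a was first in both subsets, with 20.6% of M1 reads (95% Wilson interval 20.573% to 20.618%) and 4.06% of M2 reads (4.0506% to 4.0735%). The second of M1, m3b, held 14.3% there and 1.30% in M2. Second and next in M2 were m3c and m3d, with 2.69% and 2.19% of M2 reads and 10.5% and 9.77% of M1 reads.

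The clones that leaned most to M2 held over 0.5% of M2 reads and far fewer of M1 reads. In mouse 2, m2d held 0.836% of M2 reads (131594 reads) and 0.000535% of M1 reads (69 reads, 95% Wilson interval 0.00042295% to 0.00067727%), and m2e held 0.589% and 0.000442% (57 reads). In mouse 3, m3e held 0.813% of M2 and 0.00164% of M1 reads, and m3f 0.662% and 0.00439%. In mouse 1, m1g held 0.576% of M2 and 0.00149% of M1 reads. The second there, m1h, held 0.866% and 0.0319%, so it was present in both subsets. For M2-only barcodes at 0.1% or more in M2, the 90th percentile in M1 of other mice was 66 to 83 reads for mouse 1, 60.8 to 92.1 for mouse 2 and 25.4 to 29.8 for mouse 3. The M1 reads of m2d and m2e lay within or below that range, and those of m1g (173 reads), m1h (3718), m3e (208) and m3f (556) above it. With 0.01% added to both shares, the log2 ratio of M2 over M1 was 4.38 to 6.33 over these 6 barcodes.

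The cardiac and blood samples of the same mice differed over these clones. For m2e, the cardiac shares were 0.186% in Ccr2hi and 0.211% in Ccr2lo macrophages, while each of the 4 blood populations had at most 0.00835%. For m3e they were 1.70% and 1.60%, against 0.0757% of monocyte and 0.509% of B cell reads. For m1g the highest share was in B cells, with 1.28%, above both cardiac samples (0.395% and 0.587%). The others were also found in blood, m2d with 0.231% of T cell, m3f with 0.235% of B cell and m1h with 0.651% of B cell reads. All 6 were thus at 0.01% or more in both cardiac samples, and all but m2e in at least 1 blood population.

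The clones that leaned most to M1 had shares over 0.01% in M2. In mouse 1, m1i held 1.35% of M1 and 0.0975% of M2 reads, and m1j 0.929% and 0.0769%. In mouse 2, m2f held 0.566% and 0.0322%, and m2g 0.533% and 0.0319%. The M2 share of m2f was not above its level between mice, since it reached 0.0558% in an M1 or M2 sample of another mouse. In mouse 3, m3g held 9.93% and 0.792%. Together with m3b, the log2 ratio of M2 over M1 ran from -3.77 to -3.43. All 6 of these were at 0.01% or more in M2, whereas 5 of the 6 that leaned to M2 were under 0.01% in M1. Both sets were picked by the ratio, so their levels in the other subset follow largely from that choice. Blood myeloid cells held the M1-leaning clones at shares nearer to those of M1. For m3g they were 8.74% in monocytes and 8.002% in neutrophils, against 0.340% in Ccr2hi and 0.214% in Ccr2lo cells. For m1i they were 1.09% and 0.778%, against 0.0407% and 0.0246%. This was not particular to clones that leaned most to M1. The first barcodes of M2, m1d, m2c and m3a, held 4.98%, 10.0% and 18.0% of monocyte reads. These shares were also nearer to those in M1 (6.04%, 10.4% and 20.6%) than in M2 (2.52%, 7.79% and 4.06%).

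Counts of clones past 4-fold depended on the size at which clones were counted. Among barcodes at 0.1% or more in M1 or M2, 146 of 198 (73.7%), 154 of 193 (79.8%) and 174 of 208 (83.7%) were over 4-fold higher in M2 in mice 1, 2 and 3. Those over 4-fold higher in M1 numbered 22 (11.1%), 12 (6.22%) and 20 (9.62%). Most of the barcodes counted entered the list through M2, since 150, 154 and 174 reached 0.1% in M2 only and 13, 11 and 9 in M1 only. The excess on the M2 side is thus largely set by this choice of barcodes. These shares describe the libraries and carry no test, since each mouse gave 1 sample of each subset. Among barcodes at 1% or more in either subset the balance turned, with 11.3% over 4-fold higher in M2 and 42.0% over 4-fold higher in M1 on average. There 2, 3 and 5 barcodes reached 1% in M2 only and 11, 3 and 10 in M1 only. Both balances thus depend on which subset brings barcodes into the list.

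Reads of the M2-only barcodes were found in the heart more than in circulating myeloid cells. Barcodes at 0.01% or more in cardiac Ccr2hi or Ccr2lo macrophages held 91.3%, 95.3% and 92.2% of these reads in mice 1, 2 and 3. Barcodes at 0.01% or more in monocytes or neutrophils held 19.0%, 22.4% and 14.98%. The difference was 74.1 percentage points (72.3 to 77.2, exact permutation p = 0.1), with no overlap. B cells held 35.7% ± 2.09, T cells 11.0% ± 4.81, monocytes 15.8% ± 3.82 and neutrophils 9.98% ± 1.40 of these reads (SD, n = 3 each). Cardiac samples held 925 to 1361 present barcodes and monocyte and neutrophil samples 108 to 229, and the part of these list sizes in the difference was not tested. By definition the M2-only set also leaves out every barcode present in M1. Clones that M1 shares with blood myeloid cells are thus removed in advance, and the part of this choice in the difference was not tested.

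Among the barcodes shared by M1 and M2 the gap was smaller. Cardiac barcodes held 99.5%, 99.9% and 99.6% of the M2 reads of the shared set in mice 1, 2 and 3, and blood myeloid barcodes 76.8%, 98.3% and 86.2%. Whether the 2 gaps differ was not tested. Counted by barcode, 60.6% ± 1.66 of the M2-only barcodes were present in the heart and in none of the 4 blood populations, and 15.6% ± 1.41 were present in no other population (SD, n = 3 each). The latter held 6.37% ± 1.73 of the reads of M2-only barcodes. B cell samples held 296 to 475 present barcodes and T cell samples 90 to 143, fewer than each cardiac sample. The same counts were not made for the shared barcodes or the whole M2 list, so the 60.6% has no base beside it.

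**Figure D5:**
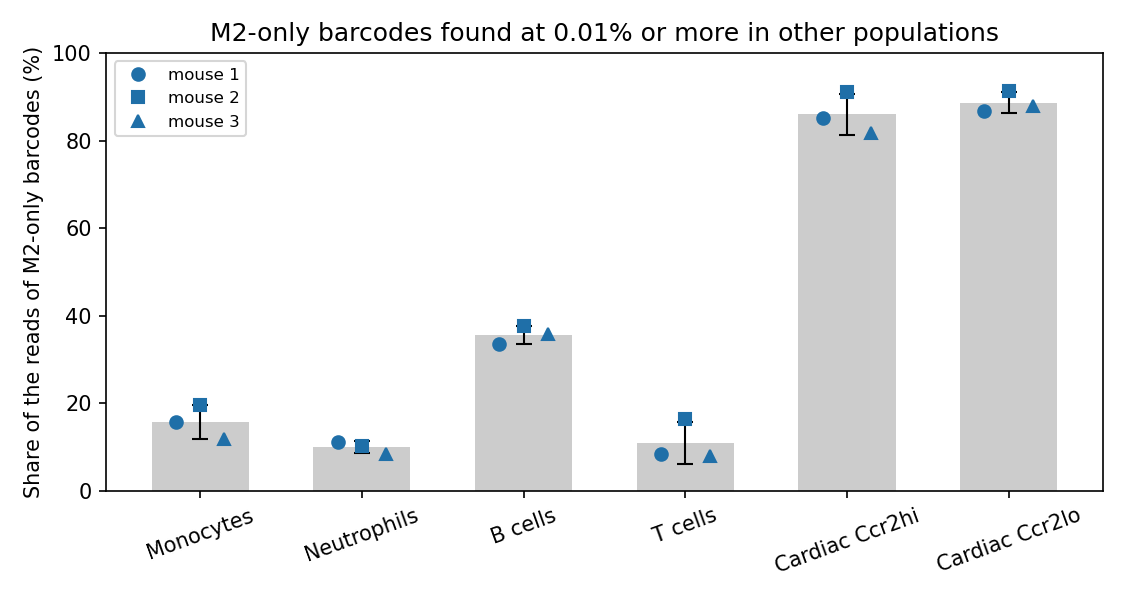
Share (%) of the M2 reads of M2-only barcodes that lay in barcodes at 0.01% or more in each other population of the same mouse. Bars are means, error bars SD over 3 mice, and points single mice. Cardiac samples lie at 81.7% to 91.3%, B cells at 33.5% to 37.7% and monocytes, neutrophils and T cells under 20%.

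The distance between M1 and M2 was set beside other paired populations of the same mice. Overlap, which adds up the lower of the 2 shares of each barcode, was 0.284, 0.344 and 0.232 for M1 with M2 in mice 1, 2 and 3. For Ccr2hi with Ccr2lo macrophages of the heart it was 0.785, 0.799 and 0.778. The difference, M1 with M2 minus the cardiac pair, was -0.501 on average, and the ranges did not overlap (exact permutation p = 0.1). For monocytes with neutrophils, a pair not put to a test, overlap was 0.888, 0.928 and 0.904. For B with T cells it was 0.355, 0.380 and 0.273. M1 with M2 minus that pair was -0.0494 on average and -0.0709 to -0.0361 in single mice, below 0 in 3 of 3, but the ranges overlapped (exact permutation p = 0.3, adjusted p = 0.3 over 9 tests). With the Morisita-Horn index in place of overlap the latter difference was -0.0380 (exact permutation p = 0.8) and its sign differed between mice. With the Jaccard index of present barcodes it was -0.160 (-0.236 to -0.111, below 0 in 3 of 3 mice, exact permutation p = 0.1). Over barcodes at 0.1% or more in either population of a pair, the median absolute log2 ratio was 3.34, 3.69 and 3.62 between M1 and M2 against 0.436, 0.410 and 0.476 between Ccr2hi and Ccr2lo. Between monocytes and neutrophils it was 0.485, 0.260 and 0.421. Between B and T cells it was 3.49, 3.39 and 3.98, so M1 with M2 lay below that pair in mice 1 and 3 and above it in mouse 2. Across these barcodes of the kidney, Spearman's rho between M1 and M2 shares was 0.318 (198 barcodes), 0.470 (193) and 0.390 (208). These barcodes share their libraries and are not independent replicates.

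The main test of single barcodes across mice called none, and few barcodes recurred between mice. Of the 1086 barcodes that passed edgeR's filter, 927 were present in 1 mouse only and 13 in all 3. With edgeR's quasi-likelihood test, 0 of 1086 (0%) had a Benjamini-Hochberg adjusted p under 0.05 (8 at unadjusted p under 0.05, smallest adjusted p = 0.293). With the mouse as a block it was also 0 of 1086 (0%), with 30 at unadjusted p under 0.05. DESeq2 called 107 of the 1086 barcodes, all of them higher in M2, and gave no adjusted p for 917. Of these 107, 71 were present in 2 mice, 30 in 1 mouse, 2 in all 3 and 4 in none. Among all 1086 tested, 120 were present in 2 mice. The median of the highest M2 share of the 107 was 0.0557%. Of the M2 shares of a called barcode, summed over mice, a median of 76.2% came from 1 mouse.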

How the data were processed

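Per the labels' protocols, barcodes in genomic DNA were amplified in 18 PCR cycles and then in 9 to 11 cycles that added indexes. The deposited files hold whole-number read counts per barcode of 1 sample each, not normalised. For the authors' read trimming and barcode counting, no tool is given in the sources consulted. Counts were divided by the sample total (Python 3.11.15, numpy 2.4.6, scipy 1.17.1). Whole-sample measures were compared by exact permutation of 3 values against 3, which leaves out the pairing by mouse. In the overlap and the heart against blood comparisons, both values of a mouse share samples or mouse and are not independent. The exact sign-flip p, which uses the pairing, was 0.25 in each of the 9 comparisons. Single barcodes were tested with edgeR 4.0.16 (TMM, filterByExpr) and DESeq2 1.42.0 (size factors from positive counts). The edgeR fit was checked on simulated counts, and DESeq2 was not. In the simulation each barcode had the same expected share in all mice of a subset, unlike these data, where most tested barcodes were present in 1 mouse only. The same number in M1 and M2 means the same mouse per the titles, and M1 and M2 overlapped by 0.286 on average within a number and at most 0.0121 between numbers. No pair among the 6 files agreed within sampling noise. Named barcodes were the 3 leading ones of each subset and the 2 with the highest ratio each way per mouse. Members, lists and rules were chosen with earlier results of these data known. Samples are single animals, and the labels give no batch.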

Additional observations from a re-analysis of the deposited data

How the results depend on the processing

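All 94 alternatives to the 9 whole-sample comparisons kept the direction of the main value, and none could pass a threshold of 0.05. They were thinning to equal depth, merging barcodes 1 mismatch from one 10 times as abundant, removing barcodes under 10 reads, removing barcodes 100 times as abundant in another mouse, alternating barcodes alone, other presence levels and indices, leaving out each mouse, and pairing. The replicate block (sign flips within mice) reuses each main value, for example 8.24-fold for the number of barcodes, so its direction could not change. Only the p was new, an exact sign-flip p of 0.25, the smallest that 3 pairs can give. Some values moved by over 1.5 times. The fold in barcode number was 4.38 with presence at 0.001% and 4.72 at 0.1%, the fold in effective number was 21.6 by Shannon entropy and 10.5 by the inverse Simpson index, and the M2-only difference was 50.8 percentage points at 0.01% and 30.4 at 0.1%. The difference from the overlap of B with T cells was -0.0494, and -0.160 by the Jaccard index. The M2-only difference moved less, to 39.5 percentage points, with absence taken as under 0.001%, a setting chosen after seeing the data. The share of barcodes over 4-fold higher in M2 was 79.1% at a minimum share of 0.1% and 11.3% at 1%. DESeq2 gave 107 calls against 0 in edgeR, while the replicate block, total counts without TMM, other filters, merging, all 24 samples in the fit and leaving out each mouse gave 0. The cause was not tested. The median log2 fold change over tested barcodes was 4.16 with TMM and 5.45 without, but -0.07 with the replicate block and -0.84 to -0.46 without each mouse in turn, so no direction was read from it. Thinned to the lowest total, the fold in barcode number was 8.25, and without each mouse in turn it was 7.54 to 9.67.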

Other observations

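Some barcodes kept a near-constant ratio to each other in every population of their mouse. Among the named barcodes, m1d and m1e differed by 0.973 to 1.18 times over the 8 populations of mouse 1, with ratios of 1.02 in M1 and 1.06 in M2, although their sequences differ at 26 positions. The same held for m1b and m1c, at 0.877 to 1.11 times over the 8 populations, with 21 differing positions. These were 2 of the 87 pairs of named barcodes within a mouse whose ratio stayed within 1.5-fold in all 8 populations. They were picked out by their values.

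Barcodes at 0.1% or more in M2 had similar shares in the heart whether or not M1 held them. Against the mean of both cardiac samples, 95.7%, 100% and 98.4% of the M2 barcodes present in M1 and 96.7%, 96.7% and 90.5% of those not present in M1 lay within 4-fold in mice 1, 2 and 3. The median log2 ratio of M2 over heart was 0.40, 0.16 and 0.31 for the former and 0.45, 0.35 and 0.40 for the latter.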
